A study of Mus musculus with 16 samples.

Results

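The genes described here are the V segments of the mouse T cell receptor alpha and beta chains, taken as every symbol that starts with Trav or Trbv. They number 165, of which 130 are Trav and 35 are Trbv, among 55290 symbols in the tables of sorted CD8 T cells and 53112 in those of whole tumours. They were measured by bulk RNA sequencing in HM1 tumours, a mouse ovarian cancer model, from mice with mannose supplementation or without it (control). CD8 T cells sorted from such tumours gave 3 mannose and 3 control libraries, and whole tumour tissue gave 5 mannose and 5 control libraries. The title of the series names an antibody against PD-1, and the labels do not say whether any group received it. They give no strain, age, dose or time of supplementation, and the mouse behind each replicate, or a pooling of several, is not given in the sources used here. Levels are TPM, a measure of transcript abundance per transcript length that sums to a common total in each library.

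A T cell receptor chain is made from a gene that developing T cells assemble from separate segments. These are V and J segments and, in beta chains, also a D segment. The assembled part is then spliced to a constant region in the RNA. The V segment encodes most of the variable domain, including the first and second loops that touch the peptide-MHC complex and the beginning of the third, which spans the joint. Each T cell clone usually carries a single productive beta chain and its progeny carry the same segments, so the V segments in the RNA of a T cell sample follow which clones are present. Alpha V segments lie on mouse chromosome 14, where a stretch of the locus is present in several copies whose symbols carry a d or an n. Beta V segments lie on chromosome 6.

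Sequences are shown of the Trbv members that led a library or changed within their subgroup, and of Trbv16, among the top 3 of the control 3 library. They tell apart segments that the results set against each other. The lines give the last 60 coding bases, 5′ to 3′ on the coding strand, from GENCODE M21 transcripts, with the codon of the last in-frame cysteine in capitals, after which the third loop begins.
Trbv4: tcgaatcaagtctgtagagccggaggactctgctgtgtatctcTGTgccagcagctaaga
Trbv13-1: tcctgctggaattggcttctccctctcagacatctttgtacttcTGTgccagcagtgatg
Trbv13-2: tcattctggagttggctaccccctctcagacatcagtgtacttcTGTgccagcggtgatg
Trbv13-3: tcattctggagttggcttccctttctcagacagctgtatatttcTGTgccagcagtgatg
Trbv16: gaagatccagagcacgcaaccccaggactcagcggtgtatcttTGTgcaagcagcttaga
Trbv17: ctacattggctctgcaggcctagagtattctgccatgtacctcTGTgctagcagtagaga

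Over their whole coding sequences, Trbv13-2 and Trbv13-3 were 90.6% identical, Trbv13-1 and Trbv13-2 were 87.9% and Trbv13-1 and Trbv13-3 were 85.3%. Trbv4 and Trbv16 were 57.3% identical. Copies of the alpha locus are closer. Trav6-6 and Trav6d-6 had the same 344 coding bases, while Trav6n-6 differed from them at 9, of which 4 lie in the 60-base window below. The window starts at coding base 34 of each, with the bases that differ in capitals.
Trav6-6: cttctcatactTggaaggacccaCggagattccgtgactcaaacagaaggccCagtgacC
Trav6d-6: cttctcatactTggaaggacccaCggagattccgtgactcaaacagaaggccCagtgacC
Trav6n-6: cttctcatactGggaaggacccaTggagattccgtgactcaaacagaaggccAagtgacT

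Equal TPM in all 6 CD8 libraries was found for 13 pairs of Trav members, such as Trav6-6 and Trav6d-6. Of these pairs, 12 are identical over the whole coding sequence, and Trav6d-7 and Trav6n-7 differ in length alone. Reads within such coding sequences fit either copy, so their values are uncertain as levels of single segments, although Trav9d-3 and Trav9n-3, also identical, were given different values in the tumours. Nearly identical copies such as Trav14d-3-dv8 and Trav14n-3 (96.7%) or Trav12-3 and Trav12n-3 (96.8%) may share reads as well.

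Read depth is unknown for TPM values. Symbols with at least 1 TPM numbered 13538 to 14384 in the CD8 libraries and 12345 to 13820 in the tumours. In the headers, the 3 CD8 control tables carry the name of mannose samples. The groups, and with them every direction below, follow the labels instead. The sorted libraries held the CD8 chain genes, with Cd8a at 285 to 564 TPM in mannose and 569.5 to 591 TPM in control libraries, and Cd4 at most 14.8 TPM. They also held genes of other cell types. The summed level of 9 macrophage markers was 1088 to 1481 TPM in mannose and 4101 to 4565 TPM in control libraries, and all 9 fell. That of 8 carcinoma markers was 1608 to 2459 TPM in mannose and 237 to 530.0 TPM in control libraries, carried by the keratins Krt8, Krt18 and Krt19, which rose. The epithelial cadherin Cdh1 fell, at 11.04 ± 2.95 TPM with mannose and 28.7 ± 1.20 TPM in control (SD, n = 3 each), and the other 4, Epcam among them, stayed under 1 TPM. All 5 fibroblast markers rose and 3 of 4 neutrophil markers fell. The part of these cells in the results on V segments was not tested.

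Not all CD8 libraries can be taken as independent. The V segment use of mannose 1 and mannose 2 was nearly the same, as was that of control 1 and control 2, while mannose 3 and control 3 each differed from the rest. The overlap of 2 libraries, taken as the sum over segments of the smaller of the 2 shares, was 93.6% for the Trbv shares of mannose 1 and 2 and 96.0% for those of control 1 and 2. Each of the other 13 pairs of CD8 libraries lay between 42.2% and 62.7%, with a median of 46.9%. For Trav shares, mannose 1 and 2 overlapped by 86.8% and control 1 and 2 by 81.4%, against 37.0% to 63.7% in the other 13 pairs (median 42.5%). No 2 of the tables were identical. Tests below treat all libraries as separate samples, and are also given with each like pair averaged into a single sample. The labels do not say whether the libraries of a like pair share a mouse.

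**Figure D1:**
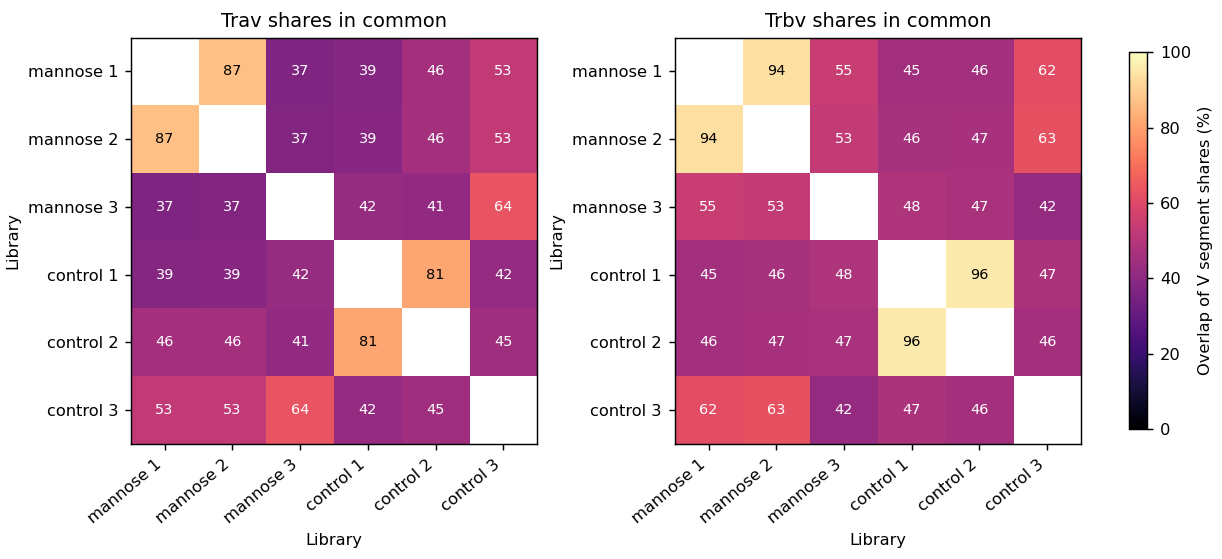
Overlap of V segment shares (%, colour and printed number) between each 2 of the 6 sorted CD8 libraries, for Trav on the left and Trbv on the right. Mannose 1 with 2 and control 1 with 2 stand out at 81.4% or more, and every other pair is at 63.7% or less.

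Other overlaps did not follow the treatment groups. The Trbv shares of control 3 overlapped with those of mannose 1 by 61.6% and mannose 2 by 62.7%, but with those of control 1 by 47.5% and control 2 by 46.0%. The Trav shares of control 3 overlapped most with those of mannose 3, at 63.7%. Leaving the like pairs aside, the 9 pairs between groups had a median Trbv overlap of 46.6% and the 4 pairs within a group 50.3%. For Trav the median was 45.7% between groups and 39.6% within a group. With members summed into subgroups by the number after Trav or Trbv, a step chosen after seeing the data, the like pairs still overlapped by 92.8% to 96.2% and the other pairs by 44.8% to 64.7% for Trbv and 62.4% to 83.9% for Trav. Over the 14167 other genes, Pearson's r between libraries on the log2(TPM + 1) scale was 0.983 and 0.982 for the like pairs, 0.966 to 0.976 for other pairs within a group and 0.886 to 0.952 between groups.

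Beta chain use in each CD8 library was concentrated in a few segments, but not in the same ones. The 10 segments with the highest mean share held between 85.2% and 94.5% of the summed Trbv TPM. Of the 35 Trbv members, 22 were above 0 in at least 1 library and 16 in all 6, and 13 were listed at 0 throughout. Those 13 were 11 pseudogenes and the functional Trbv21 and Trbv23. Pseudogenes, V segments that cannot encode a chain, number 13 among the Trbv members, and Trbv22 and Trbv24 were above 0 in control 3 alone, at 4.14 and 3.01 TPM.

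**Figure D2:**
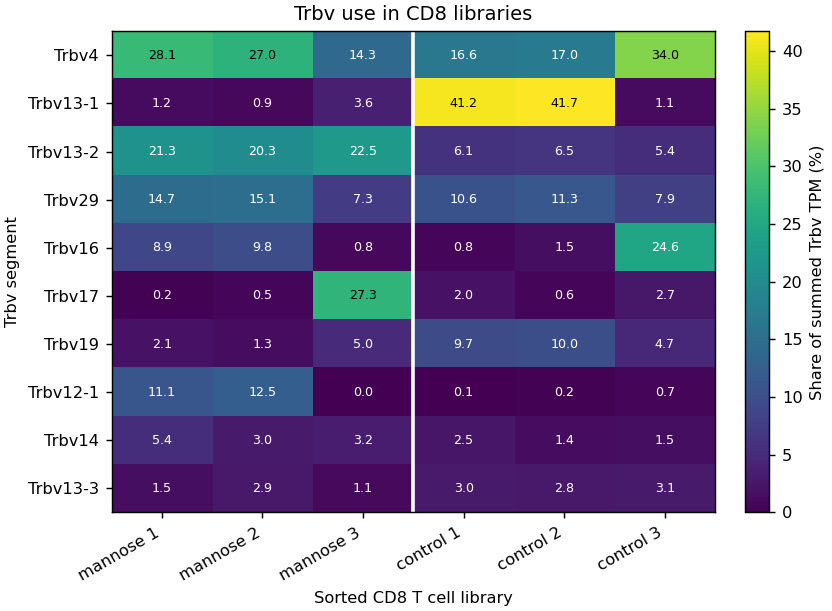
Share of the summed Trbv TPM (%, colour and printed number) of the 10 Trbv segments with the highest mean share, in the 3 mannose and the 3 control libraries of sorted CD8 T cells. Trbv13-2 is at 20.3% to 22.5% in mannose and 5.4% to 6.5% in control libraries, while Trbv13-1, Trbv16, Trbv17 and Trbv12-1 are high in particular libraries of a group.

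Trbv4 was the leading beta segment in mannose 1, with 28.1% of the summed Trbv TPM, in mannose 2, with 27.0%, and in control 3, with 34.0%. Its levels were 227, 263 and 211 TPM in mannose libraries 1 to 3 and 253, 257 and 607 TPM in control libraries 1 to 3, so that control 3 stood above the rest and the groups overlapped. Trbv13-1 led control 1 and control 2, with 41.2% and 41.7%. It measured 10.1, 8.71 and 53.6 TPM in mannose and 626, 631 and 20.5 TPM in control libraries, high in the like pair of controls and low in control 3. Despite its mean of 24.1 ± 25.5 TPM with mannose against 426 ± 351 TPM in control (SD, n = 3 each), its log2 difference of -3.50 (SE 1.38) did not pass (limma, adjusted p = 0.0902).

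Trbv17 led mannose 3 with 27.3% and was minor elsewhere, at 1.88, 4.77 and 402 TPM in mannose and 30.5, 9.82 and 48.8 TPM in control libraries. Trbv16 measured 71.9, 95.6 and 12.4 TPM in mannose libraries, against 12.2, 23.4 and 439 TPM in control libraries, of which control 3 gave it 24.6% of its Trbv sum. Trbv12-1 was high in mannose 1 and 2 alone, with 89.5, 121 and 0 TPM in mannose and 1.78, 2.91 and 13.0 TPM in control libraries. None of these 3 segments separated the groups or passed the test, and in each the high values belonged to 1 library, to a like pair or to both. Trbv29 was more even, at 119, 147 and 108 TPM in mannose and 160.5, 171 and 141 TPM in control libraries, and did not pass (adjusted p = 0.0840).

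Alpha chain use was spread over many more segments. Of the 130 Trav members, 108 were above 0 in at least 1 CD8 library, 51 in all 6 and 32 at 1 TPM or more in all 6, and 22 were listed at 0 throughout. Those 22 were 17 of the 20 annotated pseudogenes and 5 functional segments, Trav11, Trav6d-3, Trav6n-5, Trav7-6 and Trav7n-6. The 3 Trav pseudogenes above 0, Trav11n, Trav13-3 and Trav8-2, together gave 0 to 2.48 TPM in mannose and 1.66 to 4.23 TPM in control libraries. The leading 10 Trav segments held 37.1% to 51.0% of the summed Trav TPM.

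**Figure D3:**
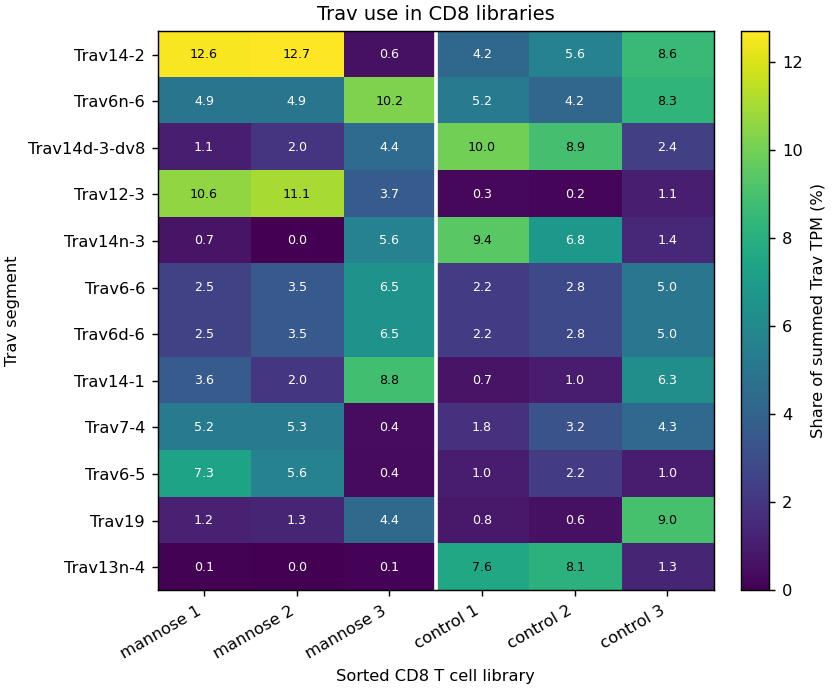
Share of the summed Trav TPM (%, colour and printed number) in the 3 mannose and the 3 control libraries of sorted CD8 T cells. Shown are the 10 Trav segments with the highest mean share, and Trav19 and Trav13n-4, which were among the top 3 of a library. No segment passes 12.7%. Trav12-3, at 3.69% to 11.1% in mannose and 0.204% to 1.09% in control libraries, is the 1 of the 10 whose groups do not overlap. Those of Trav13n-4, at 0.0435% to 0.128% in mannose and 1.30% to 8.14% in control libraries, do not overlap either.

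Trav14-2 led mannose 1 and 2, with 12.6% and 12.7% of the Trav sum, at 105, 134 and 8.67 TPM in mannose and 51.7, 69.3 and 131 TPM in control libraries. Trav6n-6 led mannose 3 with 10.2%, at 41.2, 52.0 and 155 TPM in mannose and 63.8, 51.5 and 127 TPM in control libraries. Both groups of libraries overlapped in each of these segments, and the means of Trav14-2 were 82.5 ± 65.6 TPM with mannose and 84.1 ± 41.8 TPM in control (SD, n = 3 each). Trav14d-3-dv8, whose symbol marks a segment that delta chains can use as well, led control 1 and 2 with 10.00% and 8.95%. It measured 8.87, 20.8 and 67.3 TPM in mannose and 122, 110.3 and 36.3 TPM in control libraries, with mannose 3 above control 3, and did not pass (adjusted p = 0.120). Trav19 led control 3 with 8.99%, at 9.75, 13.7 and 66.8 TPM in mannose and 10.3, 7.22 and 137 TPM in control libraries. As a subgroup, the Trav14 segments held a like share in every library, 28.0%, 25.2% and 26.2% in mannose and 31.4%, 29.7% and 25% in control libraries, although its members differed from library to library.

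The evenness of use was summarised as an effective number of segments, the count of equally used segments that would have the same Shannon entropy. For Trav it was 31.6, 32.0 and 29.4 in mannose and 38.8, 39.6 and 34.8 in control libraries, lower in every mannose than in every control library (31.0 ± 1.39 with mannose and 37.7 ± 2.57 in control, SD, n = 3 each). Trav members above 0 numbered 76, 73 and 77 in mannose and 94, 88 and 88 in control libraries, a count that moves with read depth, which is unknown. For Trbv the effective number was 7.86, 8.12 and 8.39 in mannose and 7.11, 6.69 and 8.32 in control libraries, where the groups overlapped.

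Mannose was then compared with control in the sorted CD8 T cells, segment by segment. Of 165 members, 101 had at least 1 TPM in 3 or more CD8 libraries and were tested, 81 Trav and 20 Trbv. By limma on log2(TPM + 1), with Benjamini-Hochberg adjustment over all 14280 genes tested, 3 members rose and 12 fell, or 14.9% of those tested, against 34.9% of all genes (23.2% higher and 11.7% lower). They were 2 higher and 9 lower Trav members and 1 higher and 3 lower Trbv members. The groups did not overlap for 17 members, 3 higher and 14 lower with mannose, or 16.8%, against 51.4% of all genes (33.3% higher and 18.1% lower). Of the lower members, Trav13-3, Trav7n-4, Trav8d-2, Trav7d-5 and Trav7n-5 reached 1 TPM in control libraries alone. Since testing needed 1 TPM in 3 libraries, it was fixed in advance that their groups did not overlap. The median log2 difference was -0.35 over the 101 members and 0.09 over all genes. It became 0.14 for the members when libraries were scaled to their summed Cd3 genes, which moved that of all genes to 0.59. Members varied more within a group than other genes did, with a median SD of log2(TPM + 1) of 0.936 between mannose and 0.817 between control libraries, against 0.175 between mannose and 0.155 between control libraries for the 14179 other genes.

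**Figure D4:**
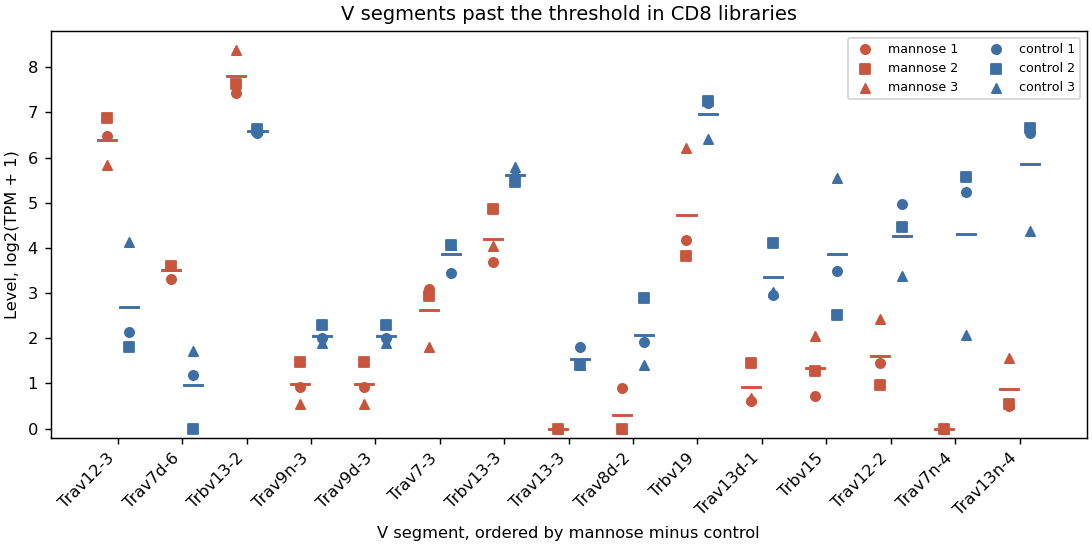
Levels on the log2(TPM + 1) scale of the 15 V segments past the adjusted p threshold of 0.05, in the 3 mannose (red) and 3 control (blue) CD8 libraries, with a bar at each group mean, ordered from the largest rise to the largest fall. Trav12-3, Trav7d-6 and Trbv13-2 are higher in every mannose library, and the other 12 segments are lower in every mannose than in every control library. For Trav13-3, Trav7n-4 and Trav8d-2, which reached 1 TPM in control libraries alone, the filter for testing fixed this in advance.

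Trbv13-2 was the beta segment that rose. It measured 172, 197 and 332 TPM in mannose libraries, against 92.7, 98.0 and 96.4 TPM in control libraries. Every mannose library lay above every control library, and the 3 controls differed little, of which control 1 and 2 are a like pair. The means were 234 ± 85.8 TPM with mannose and 95.7 ± 2.74 TPM in control (SD, n = 3 each), a log2 difference of 1.22 (SE 0.228, limma adjusted p = 0.00773). Its share of the Trbv sum was 21.3 ± 1.12% with mannose, close to equal in the 3 libraries, and 5.99 ± 0.547% in control. The call held in each fit that left out 1 library and with the like pairs averaged (adjusted p = 0.0429). Its relatives moved otherwise, with Trbv13-1 as above and Trbv13-3 lower with mannose. Trbv13-3 measured 11.9, 28.3 and 15.6 TPM in mannose and 46.4, 42.8 and 54.6 TPM in control libraries, a log2 difference of -1.40 (SE 0.290, adjusted p = 0.0109). That call also held in those fits, with an adjusted p of 0.0273 for the averaged pairs, but was lost after scaling to the Cd3 genes (adjusted p = 0.0566) and with all 16 libraries in 1 fit (0.0677). Trbv13-3 shares of the Trbv sum overlapped, at 1.47%, 2.91% and 1.06% in mannose and 3.05%, 2.83% and 3.06% in control libraries. Summed as a subgroup, the Trbv13 segments held 24.0%, 24.1% and 27.2% of the Trbv sum in mannose and 50.3%, 51.0% and 9.60% in control libraries, and the subgroup did not pass (log2 difference -0.82, adjusted p = 0.322).

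Other beta segments that fell were Trbv19 and Trbv15. Trbv19 measured 17.01, 13.1 and 73.5 TPM in mannose and 147, 151 and 83.8 TPM in control libraries, where mannose 3 came close to control 3 (log2 difference -2.22, adjusted p = 0.0302). The call was lost without mannose 1 (adjusted p = 0.0975), mannose 2 (0.0927), control 1 (0.0843) or control 2 (0.0868). Trbv19 held 2.11%, 1.34% and 4.99% of the Trbv sum in mannose and 9.70%, 9.96% and 4.69% in control libraries, so the groups overlapped by share. Trbv15 was a minor segment, at 0.65, 1.41 and 3.17 TPM in mannose and 10.3, 4.74 and 46.0 TPM in control libraries, with a log2 difference of -2.51 (adjusted p = 0.0402). Its call was lost without mannose 1 (adjusted p = 0.123), mannose 2 (0.108), control 1 (0.0747) or control 3, where it sat at the threshold. Both calls were also lost with the like pairs averaged.

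Among alpha segments, Trav12-3 had the largest rise. It measured 88.2, 117 and 56.0 TPM in mannose and 3.41, 2.52 and 16.6 TPM in control libraries, so that the lowest mannose library was well above the highest control (log2 difference 3.70, SE 0.605, adjusted p = 0.00489). The call held without any single library, and adjusted p was 0.0515 with the like pairs averaged. Its copy Trav12n-3, 96.8% identical over the coding sequence, measured 52.7, 48.9 and 0 TPM in mannose and 0, 0 and 18.4 TPM in control libraries. This copy did not pass (adjusted p = 0.351). Trav7d-6 rose as well, from few transcripts, at 8.98, 11.2 and 11.2 TPM in mannose and 1.27, 0 and 2.30 TPM in control libraries (log2 difference 2.54, adjusted p = 0.00487), a call kept in all of these fits. Within the Trav12 subgroup, Trav12-2 moved the other way and fell, with 1.75, 0.96 and 4.34 TPM in mannose and 30.4, 21.2 and 9.39 TPM in control libraries (log2 difference -2.66, adjusted p = 0.00765). That call held without any single library, with an adjusted p of 0.0699 when the pairs were averaged.

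Trav13n-4 had the largest fall with a measurable ratio. It measured 0.42, 0.46 and 1.94 TPM in mannose and 92.8, 100.3 and 19.9 TPM in control libraries, nearly absent with mannose and lowest among controls in control 3 (log2 difference -5.00, SE 0.632, adjusted p = 0.00242). Trav13d-1 fell beside it, from a lower level, with 0.53, 1.74 and 0.60 TPM in mannose and 6.77, 16.3 and 7.15 TPM in control libraries (log2 difference -2.45, adjusted p = 0.00398). Both calls held without any single library and with the pairs averaged. Trav7n-4 was listed at 0 in all 3 mannose libraries, against 36.9, 46.8 and 3.22 TPM in control libraries (adjusted p = 0.00976, and 0.0804 with the pairs averaged). Its copies Trav7-4 and Trav7d-4 are each 97.9% identical to it over the coding sequence. Trav7-4 was present with mannose, at 43.2, 56.0 and 6.50 TPM, against 22.1, 39.9 and 66.4 TPM in control libraries. Trav7d-4 measured 1.56, 0.85 and 0.69 TPM in mannose and 35.9, 51.0 and 1.40 TPM in control libraries, low with mannose and in control 3, and did not pass (adjusted p = 0.0677). Trav13-3, annotated as a pseudogene, was also listed at 0 in the mannose libraries, against 2.5, 1.66 and 1.67 TPM in control libraries (adjusted p = 0.00232), and kept its call in all of these fits. Trav7n-4 and Trav13-3 reached 1 TPM in control libraries alone and were tested only through them, so their lack of overlap was fixed in advance.

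The remaining called segments were low. Trav9d-3 and Trav9n-3 had equal values, 0.90, 1.77 and 0.46 TPM in mannose and 3.00, 3.90 and 2.71 TPM in control libraries (log2 difference -1.08, adjusted p = 0.0206), and their 2 calls may rest on the same reads. Their call was lost without mannose 1 (adjusted p = 0.0661), control 1 (0.0530) or control 2 (0.0703). Trav7-3 fell by 1.24 on the log2 scale (adjusted p = 0.0368), and the call was lost without mannose 2 (0.0634), control 2 (0.105) or control 3 (0.105). As a share of the Trav sum, Trav7-3 overlapped between groups, with 0.905% in mannose 1 and 0.809% in control 1. Trav8d-2 fell by 1.77 (adjusted p = 0.0200) and lost its call without mannose 2 (0.0727). This segment too reached 1 TPM in control libraries alone and was tested only through them. Of the 15 calls, 9 held whichever library was removed. With the like pairs averaged, 6 of the 15 were kept, all among those 9, and no other member was called, so that 6 of 101 members passed, against 12.4% of all genes. Trav13-3, tested only through the control libraries, was among these 6. Without mannose 3, which left a like pair alone against the controls, 39 members passed (38.6%, against 42% of all genes), and without control 3, 22 did (21.8%, against 25.3%).

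Subgroups gave a shorter list. Summing the members by the number after Trav or Trbv left 35 subgroups to test, of which Trav12 rose (log2 difference 1.09, adjusted p = 0.0328) and Trav13, Trav9, Trbv15 and Trbv19 fell. These 5 calls are 14.3% of the subgroups, against 35.1% of all genes and subgroups in that fit. The Trav13 subgroup held 1.02%, 1.75% and 1.89% of the Trav sum in mannose and 13.0%, 14.7% and 2.35% in control libraries, every mannose share below every control share (log2 difference of the sum -2.53, adjusted p = 0.0257). The Trav12 subgroup held 19.2%, 18.2% and 7.09% in mannose and 5.10%, 4.10% and 6.98% in control libraries, where mannose 3 and control 3 were close.

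Summed beta segments were lower with mannose and summed alpha segments overlapped. Summed Trbv came to 808, 973 and 1474 TPM in mannose and 1520, 1514 and 1787 TPM in control libraries, each mannose library below each control library (1085 ± 347 TPM with mannose and 1607 ± 156 TPM in control, SD, n = 3 each, a ratio of 0.675). Summed Trav came to 833, 1058 and 1517 TPM in mannose and 1218, 1233 and 1527 TPM in control libraries (1136 ± 349 TPM with mannose and 1326 ± 174 TPM in control, a ratio of 0.857). In such bulk samples, fewer T cells and less receptor RNA per cell cannot be told apart. Set against the genes of the CD3 chains, which form the signalling part of the receptor (Cd3d, Cd3e, Cd3g and Cd247, summed), Trbv came to 0.651, 0.646 and 0.662 in mannose and 0.643, 0.668 and 0.716 in control libraries, and the groups overlapped. The same ratio for Trav was 0.671, 0.703 and 0.681 in mannose and 0.516, 0.544 and 0.612 in control libraries, higher in every mannose library. Summed Trbv per summed Trav was 0.970, 0.920 and 0.971 in mannose and 1.25, 1.23 and 1.17 in control libraries, lower in every mannose library.

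The constant regions are shared by all V segments of a chain. Trac, the alpha constant region, measured 357, 518 and 809 TPM in mannose and 718, 655 and 753 TPM in control libraries and did not pass (adjusted p = 0.276). Summed Trav was 1.87 to 2.33 times Trac in mannose and 1.7 to 2.03 times in control libraries. Summed Trbv was 1.00 to 1.06 times the sum of the 2 beta constant regions in mannose and 0.984 to 1.09 times in control libraries, so both ratios overlapped between groups. Trbc1 measured 409, 497 and 308 TPM in mannose and 481, 463 and 458 TPM in control libraries (adjusted p = 0.313), and Trbc2 measured 370.1, 474 and 1085 TPM in mannose and 1064, 977 and 1187 TPM in control libraries (adjusted p = 0.0997). The ratio of Trbc2 to Trbc1 was 0.904, 0.953 and 3.52 in mannose libraries, against 2.21, 2.11 and 2.60 in control libraries. The like pair of mannose libraries was thus low and mannose 3 high in this ratio as well.

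Of 24 genes of the receptor complex and its proximal signalling, 9 fell and 0 rose in the CD8 libraries, where 11.7% of all genes fell and 23.2% rose, with a median log2 difference of -0.63. Those that fell included Cd3d and Cd247, which encode CD3 chains, the kinase Fyn, the adaptor Lcp2, the phosphatase Ptpn22, the co-receptor Cd4 and the surface receptors Cd5 and Cd6, which dampen receptor signals. Cd247 measured 74.6 ± 15.01 TPM with mannose and 116 ± 11 TPM in control (SD, n = 3 each, log2 difference -0.65, adjusted p = 0.0174). Cd5 measured 46.4 ± 30.4 TPM with mannose and 111 ± 22.3 TPM in control (log2 difference -1.40, adjusted p = 0.0374). Cd3e and Cd8a did not pass (adjusted p = 0.0740 and 0.0925). The count of genes called in either direction, 9 in the main fit, was 1 with the like pairs averaged, where 12.4% of all genes passed. It was 2 after scaling to the Cd3 genes (39.3% of all genes) and 2 without a filter on low values (14.8%). With all 16 libraries in 1 fit it was 4 (25.8%), and with median-ratio scaling 19 (35.9%). It was 3 without mannose 1 (22%), 2 without control 2 (24.7%) and 22 without mannose 3 (42%). Without mannose 2 (20.4%), control 1 (26.9%) or control 3 (25.3%), it was 1.

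Segments of invariant T cells were scarce. Trav11, which forms the alpha chain of invariant natural killer T cells, was listed at 0 in all 16 libraries. Its copy Trav11d measured 0, 0 and 0.80 TPM in mannose and 2.62, 11.4 and 0 TPM in control libraries, and Trav1, used by mucosal-associated invariant T cells, 1.93, 0 and 0 TPM in mannose and 1.36, 1.34 and 0.62 TPM in control libraries. Zbtb16, the transcription factor gene of both cell types, reached at most 0.35 TPM. All 60 Traj, 14 Trbj and 2 Trbd symbols, the other segments of these chains, were listed at 0 in every library, so the third loop and the pairing of V with J could not be described. Among gamma and delta segments, Trgv2 measured 122, 159 and 71.2 TPM in mannose and 169, 172 and 135 TPM in control libraries (adjusted p = 0.203), while the delta constant region Trdc reached at most 3.56 TPM.

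Whole tumours held V segments at far lower levels. Summed Trav was 25.9, 9.65, 36.9, 9.57 and 9.55 TPM in mannose tumours 1 to 5 and 4.45, 8.58, 17.3, 8.10 and 19.4 TPM in control tumours 1 to 5. Summed Trbv was 16.1, 3.18, 26.8, 5.62 and 5.45 TPM in mannose and 0.24, 8.20, 10.3, 2.77 and 17.9 TPM in control tumours. Mannose tumour 3 was highest and control tumour 1 lowest in both, and the groups overlapped. Summed Trav averaged 18.3 ± 12.6 TPM in mannose and 11.6 ± 6.45 TPM in control tumours, and summed Trbv 11.4 ± 9.93 TPM in mannose and 7.87 ± 6.90 TPM in control tumours (SD, n = 5 each). The ratio of the Trbv means, 1.45, was 0.964 without mannose 3 and 2.13 without control 5. The summed CD3 genes ran from 8 to 40.9 TPM in mannose and from 2.74 to 22.8 TPM in control tumours, with mannose 3 highest and control 1 lowest here too.

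**Figure D5:**
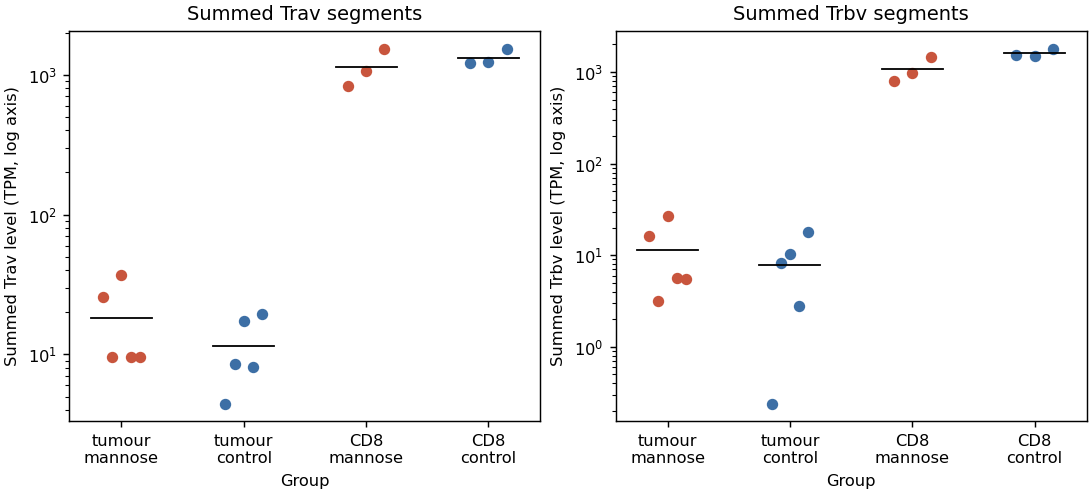
Summed TPM of all Trav (left) and all Trbv segments (right) in each library, on log axes, with points for libraries and a line at the group mean. Mannose and control tumours overlap at 0.24 to 36.9 TPM, mannose and control CD8 libraries overlap for Trav, and for Trbv the 3 mannose CD8 libraries (808 to 1474 TPM) lie below the 3 control libraries (1514 to 1787 TPM).

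At these levels few members could be tested. Above 0 in at least 1 tumour were 75 Trav and 19 Trbv members, but 3 members alone reached 1 TPM in 5 or more tumours, Trav9d-3, Trbv12-2 and Trbv4. By limma 0 of these 3 passed, and 0 had an unadjusted p under 0.05, against 0% called and 827 with such a p among all 13282 genes. The groups overlapped for all 3, while they did not for 1.63% of all genes (1.51% higher and 0.128% lower). Trbv12-2 measured 3.27, 1.65, 3.55, 1.63 and 1.75 TPM in mannose and 0, 3.79, 0.63, 0.51 and 9.82 TPM in control tumours, which spread more widely (log2 difference 0.31, adjusted p = 0.895). In the CD8 libraries this segment was minor, at 12.1, 18.2 and 20.9 TPM in mannose and 9.15, 10.2 and 14.4 TPM in control libraries. Trbv4, the leading segment of the CD8 libraries by mean share, measured 5.71, 0, 3.14, 0.36 and 0.26 TPM in mannose and 0, 2.03, 0.43, 1.02 and 1.14 TPM in control tumours (log2 difference 0.27, adjusted p = 0.899).

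Segments called in the CD8 libraries were mostly too low to follow in tumours. Trbv13-2 was above 0 in mannose tumour 5 alone, at 1.26 TPM, Trav12-3 reached at most 0.29 TPM, Trav13n-4 at most 0.67 TPM, and Trbv15 was listed at 0 in all 10. Whether the 2 tissues differ in the change of a segment was not tested. Tumours also differed from each other in their V use. Among the 7 tumours with a summed Trbv of at least 5 TPM, pairs overlapped by 20.8% to 66.3% in their Trbv shares, with a median of 42.3%, and among the 9 with as much summed Trav by 9.32% to 53.4% (median 26.9%), at levels where few transcripts stand behind each share. The highest Trav overlap was that of mannose 5 and control 4, where Trav9d-3, described below, held 31.1% and 36.9% of the Trav sum.

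Trav9d-3 behaved unlike the other segments in tumours. It measured 2.81, 2.22, 1.57, 2.38 and 2.97 TPM in mannose and 2.63, 3.30, 1.90, 2.99 and 2.82 TPM in control tumours, the 1 Trav member above 0 in all 10. It was the leading Trav segment in 7 of the 10 and made up 59.1% of the Trav sum in control 1, where the summed CD3 genes were lowest. Its levels thus stayed within a narrow range (2.39 ± 0.551 TPM in mannose and 2.73 ± 0.524 TPM in control tumours, SD, n = 5 each) while the CD3 sum ranged from 2.74 to 40.9 TPM (log2 difference -0.14, adjusted p = 0.831). Trav9n-3, whose coding sequence is identical and whose values equalled those of Trav9d-3 in every CD8 library, was at most 0.16 TPM in tumours.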

How the data were processed

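The authors deposited 1 table of TPM values per library, with gene symbols. These were made with fastp, HISAT and RSEM on build GRCm39, per the submitters' processing notes. The roles of these tools and the annotation release are not given in the sources used here. Segment types, chromosomes and coding sequences came from GENCODE M21 and RefSeq for an older build, matched by symbol for all 165 members, so no coordinates are given. No member symbol was listed more than once in a table.

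Shares were taken of the summed Trav or Trbv TPM of a library. Mannose was compared with control in each tissue with limma 3.58.1 (R 4.3.3, variance trend) on log2(TPM + 1). Genes needed at least 1 TPM in 3 CD8 or 5 tumour libraries. P-values were adjusted by Benjamini-Hochberg over all genes tested, with a threshold of 0.05. They weigh a difference against the spread between these libraries, and the libraries of a like pair may not be independent. A fold change on this scale understates the change of low genes. Sums and effective numbers were not tested. The fit was tested on simulated data drawn independently for each library, which could not show the effect of like pairs. Named members were the 10 of each chain with the highest mean share in the CD8 libraries, the top 3 of any library, those called, the leading segments of tumours, and Trav11, Trav11d and Trav1. The members and lists were chosen with earlier results of these data known. Alternatives are given in the closing section. Python 3.11.15, pandas 2.3.3, Biopython 1.88 and matplotlib 3.10.9 were used.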

Additional observations from a re-analysis of the deposited data

Results flagged for a closer look

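Of 28 groups of tumour values examined, 2 held a library set apart from the others of its group, where chance sets apart about 1 in 20 groups of continuous values, a rate that does not cover groups with several values at 0. Trav14d-3-dv8 measured 5.77 TPM in mannose tumour 3, against 0 to 1.28 TPM in the other mannose tumours. The same segment measured 0.59 TPM in control tumour 3 and was listed at 0 in the other control tumours.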

How the results depend on the processing

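Read depth is unknown, which limits all members near 0, and with 3 CD8 libraries a group, a single library or like pair decides many values. Of the 15 members called in the CD8 libraries, 9 were called with no filter on low values, 6 with the like pairs averaged and 5 of 35 subgroups with V symbols summed. The count was 11 to 39 with each library left out in turn, 18 after either quantile normalization or scaling by median ratios, 15 with a pseudocount of 0.1, 15 with Cd3 scaling (6 higher and 9 lower, without Trav7-3, Trav9d-3, Trav9n-3 and Trbv13-3 and with Trav5-1, Trav7d-4, Trbv12-2 and Trbv14), and 22 with all 16 libraries in 1 fit. With no filter, the members called were 6.92% of 130 tested, against 14.8% of all genes. They were 17.8% against 34.9% after quantile normalization, 17.8% against 35.9% by median ratios and 14.9% against 34% with a pseudocount of 0.1. With Cd3 scaling they were 14.9% against 39.3%, and with all 16 libraries in 1 fit 21.8% against 25.8%. With a library left out, they were 10.9% to 38.6%, against 20.4% to 42% of all genes. Of all calls, 3306 were higher and 1674 lower, against 2673 and 2305 when quantile-normalized, 2597 and 2529 by median ratios and 5139 and 472 after Cd3 scaling. In tumours 0 members were called in each alternative.

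The ratio of summed Trav in the CD8 libraries, mannose over control, was 1.23 per CD3 and that of summed Trbv 0.992 per beta constant region and 0.966 per CD3. The ratio of effective Trbv numbers, 1.10, was 1.30 by the inverse Simpson index. With libraries left out, ratios ran from 0.713 to 0.971 (summed Trav), 0.554 to 0.761 (summed Trbv), 0.792 to 0.843 (effective Trav) and 1.05 to 1.18 (effective Trbv) in CD8 libraries, and from 1.18 to 1.91 (Trav) and 0.964 to 2.13 (Trbv) in tumours. The log2 difference of Trac turned to 0.15 with Cd3 scaling, and that of Trbc1 to 0.025 after quantile normalization and 0.33 with Cd3 scaling. In tumours Trbv12-2 ran from -0.041 to 0.82 and Trbv4 from -0.14 to 0.55 with libraries left out. The cause was not tested.

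The replicate numbers do not pair the samples by their labels. Deviations from the group means correlated by 0.0565, 0.0948 and 0.163 between CD8 libraries of the same number and by -0.511 to 0.280 between such tumours. Between libraries of unlike number they correlated by -0.156 to 0.115 in CD8 libraries and by -0.346 to 0.478 in tumours. With the replicate number as a block, 20 CD8 members were called (8 higher and 12 lower) and 0 in tumours. Those 20 were 19.8% of the CD8 members tested, against 33.9% of all genes.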
